A study of Rattus norvegicus with 4 samples.

Results

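Long intergenic noncoding RNA (lincRNA) genes were followed in rat insulinoma cells depleted of Tbk1, the noncanonical IκB kinase that activates interferon regulatory factors. The members were all genes whose biotype in the deposited table was lincRNA, which gave 366 of 15172 genes. RNA was sequenced from INS-1 832/13 cells, a clonal rat β-cell line, transfected for 36 h with a non-targeting siRNA (siScramble, 2 samples, replicates 2 and 3) or with a pool of siRNAs against Tbk1 (siTbk1, 2 samples, replicates 2 and 3). All 4 samples came from the same line, and the labels name no genotype and no agent besides the siRNAs. Nothing in the labels said whether replicates were separate cultures, so the p-values measure only the spread between these samples. The comparison addressed how RNA levels change when Tbk1 is silenced.

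A lincRNA is a transcript, usually spliced and polyadenylated, that has no long open reading frame and lies between protein-coding genes. Some lincRNAs act on genes beside their own locus, others act in trans on chromatin or as scaffolds for proteins, and many have no known role. Most are less abundant than mRNAs and more restricted to a cell type, and most of the rat genes carry only a name derived from a sequence clone or a locus number. Transcription started from a shared promoter region in opposite directions is common, and Tug1, a lincRNA that represses genes with chromatin-modifying complexes, is such a partner of Morc2, which encodes an ATPase of the silencing machinery.

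Tug1 held more counts than any other member, and its promoter and that of Morc2 are shown because the pair is the most abundant divergent pair discussed here. Both windows are from RefSeq, build GRCr8, and are 300 bases long with CG dinucleotides in capitals. The Tug1 window lies at chr14:82750485-82750784 on the minus strand and the Morc2 window at chr14:82752960-82753259 on the plus strand. The windows do not adjoin, and whether the Tug1 window holds the start that faces Morc2 was not determined.
Tug1: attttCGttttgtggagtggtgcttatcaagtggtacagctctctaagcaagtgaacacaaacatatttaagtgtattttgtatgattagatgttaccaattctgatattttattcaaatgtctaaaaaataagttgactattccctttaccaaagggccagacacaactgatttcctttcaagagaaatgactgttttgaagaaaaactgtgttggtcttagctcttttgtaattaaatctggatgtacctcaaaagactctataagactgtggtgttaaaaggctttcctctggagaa
Morc2: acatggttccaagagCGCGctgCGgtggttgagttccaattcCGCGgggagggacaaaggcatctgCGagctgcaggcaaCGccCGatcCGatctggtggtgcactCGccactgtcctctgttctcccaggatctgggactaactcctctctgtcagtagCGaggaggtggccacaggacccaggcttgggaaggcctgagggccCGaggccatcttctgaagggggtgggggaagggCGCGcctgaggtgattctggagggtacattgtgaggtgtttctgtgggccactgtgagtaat
The Tug1 window held 1 CG dinucleotide and 34.0% G and C, and 94.5% of all 33469 RefSeq promoter windows held at least as many CG dinucleotides. The Morc2 window held 14 CG dinucleotides and 60.7% G and C, against a median of 7 over all windows. Searched on both strands, CCAAT was in both windows and in 37.5% of all windows. TGACGTCA, the palindromic cAMP response element, was in neither, and 1.83% of all windows held it. The palindromic core motif of NRF1 was in neither as well, and 0.852% of all windows held it.

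Tbk1, the target, was at 53.7 and 52.5 CPM (counts per 1000000, after scaling of the libraries) in siScramble and at 11.8 and 13.3 CPM in siTbk1. Its log2 fold change of siTbk1 over siScramble was -2.08 (SE 0.076, edgeR quasi-likelihood test, adjusted p = 3.7e-08). Total counts ran from 38428926 to 47759013 per sample, so that 3 counts corresponded to between 0.0625 and 0.0795 CPM. All 10 β-cell markers were listed, with a summed level of 13634 to 14312 CPM in siScramble and 9518 to 10772 CPM in siTbk1. Of 4 markers of other islet cells 1 was listed, Gcg, at 1313 to 1389 CPM in siScramble and 815 to 878 CPM in siTbk1, and none of 4 fibroblast and endothelial markers was listed. The part of these shifts in the lincRNA results was not tested.

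The listed lincRNA genes held a small share of the counts in every sample. Of 44 well-known lncRNAs searched for by symbol only 1, Tug1, was listed. The others could not enter this sum, so it is not the share of all lincRNA in the cells. Their share of all counts was 0.121% (replicate 2) and 0.119% (replicate 3) with siScramble, and 0.133% and 0.141% in the same order with siTbk1. Both siTbk1 samples were above both siScramble samples. The means were 0.120% ± 0.00132 and 0.137% ± 0.00575 (SD, n = 2 each), a difference of 0.0172 percentage points. The exact permutation test, two-sided, gave p = 0.33, the smallest value that 2 against 2 samples allow. Tug1 alone held 17.0% and 15.3% of the lincRNA counts in siScramble and 19.3% and 19.4% in siTbk1. Without Tug1 the difference was 0.010 percentage points.

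Most members were rare. The median over the 366 genes was 0.404 CPM, against 20.8 CPM for protein-coding genes, and 32.2% of lincRNA genes reached 1 CPM against 84.3% of protein-coding genes. These levels are not per length, because exon lengths were not given, and the median genomic span was 5.19 kb for lincRNA genes and 21.2 kb for protein-coding genes. Between 71 and 79 members per sample had 100 counts or more, and 10 to 14 had 1000 or more. The 10 members with the most counts held between 47.3% and 49.9% of the lincRNA counts.

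The filter on low counts kept 237 members for testing. The other 129 had a mean of at most 0.247 CPM and were too shallow to test, and among them 40 (31.0%) had both siTbk1 samples above both siScramble samples and 18 (14.0%) the reverse. Over all 1219 genes that were not tested these shares were 22.2% and 16.1%. Of the 237, 198 would have passed on either group alone. A further 18 passed through siTbk1 only and 12 through siScramble only, and these had to differ, so they are no support for a direction.

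After Tbk1 knockdown, 19 lincRNA genes rose and 6 fell, where a call needs an adjusted p under 0.05 and a change of 1.5-fold or more. The 19 were 8.02% of the members tested, against 4.81% called higher among all 13953 genes, and the 6 were 2.53% against 6.18% called lower. Among protein-coding genes 4.85% were called higher and 6.31% lower. The share called in either direction, 10.5%, was near the 11.0% of all genes. Of the 198 members that passed in both groups, 15 were called higher and 2 lower. No share over all genes that passed in both groups is given here, so these 2 counts have no background beside them. Leaving out siScramble replicate 2 gave 12 lower calls and leaving out siScramble replicate 3 gave 3, so the number of lower calls rested on single libraries.

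**Figure D1:**
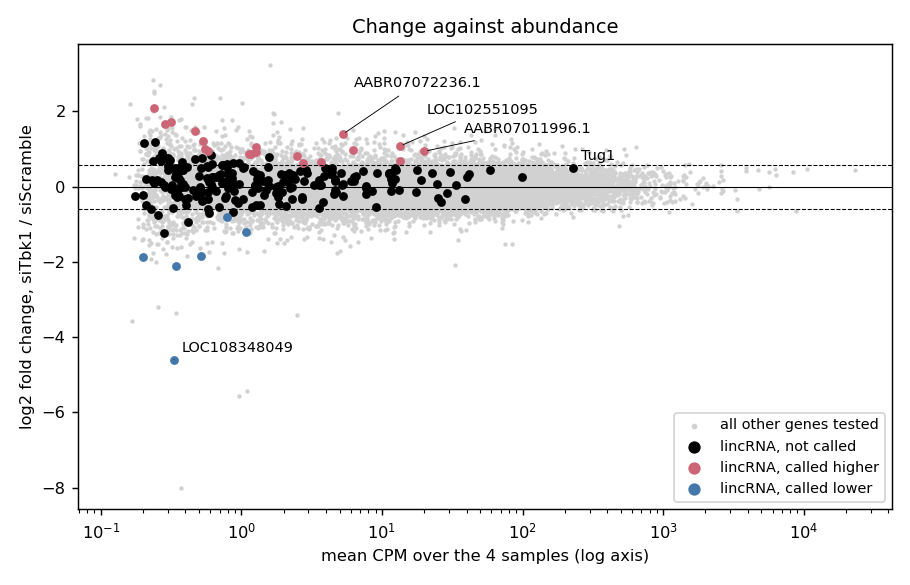
Log2 fold change of siTbk1 over siScramble (y axis) against the mean CPM over the 4 samples (x axis, log scale), with 1 point a gene. Grey points are other genes tested, black points lincRNA genes that were not called, and red and blue points those called higher (19) and lower (6). Dashed lines mark a fold change of 1.5. Calls in both directions lie mostly at low levels, and LOC108348049 at -4.60 stands furthest from 0 among the lincRNA genes.

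Counts without the fold limit are given beside these. At an adjusted p under 0.05 alone, 41 members (17.3%) were higher and 13 (5.49%) lower, against 24.4% and 24.8% of all genes. Both siTbk1 samples exceeded both siScramble samples in 99 members (41.8%, against 38.7% of all genes), and the reverse held in 41 (17.3% against 37.9%). The log2 fold change was above 0 in 154 members, 65.0% against 50.8% of all genes and 50.4% of protein-coding genes. It was below 0 in 83 members, 35.0% against 49.2% and 49.6%. Its median was 0.16 over the 237 members and 0.0071 over all genes.

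The comparison with protein-coding genes was repeated at like levels, since error grows as counts fall. Under 1 CPM, 7 of 119 lincRNA genes (5.88%) were called higher and 5 (4.2%) lower, beside 7.46% and 6.22% of protein-coding genes. Of these lincRNA calls, 4 higher passed the filter through siTbk1 only and 4 lower through siScramble only. Such genes were left in for both classes, so this range is no support for a direction. From 1 to 10 CPM, 9 of 88 (10.2%) were higher and 1 (1.14%) lower, beside 8.33% and 12.3%. At 10 CPM or more, 3 of 30 (10.0%) were higher and 0 lower, beside 3.3% and 4.34%. The median log2 fold change of lincRNA genes in these ranges was 0.12, 0.14 and 0.30, and that of protein-coding genes 0.023, -0.044 and 0.014. Of the 30 most abundant, 17 (56.7%) were higher and 4 (13.3%) lower at an adjusted p under 0.05 without the fold limit, beside 30.0% and 29.6% of the 8898 protein-coding genes at that level. The deposited counts of 17 of these 30 genes were not all whole numbers, which leaves them less certain. Such genes are described below as having reads divided between genes, although the sources used here do not say how reads were shared.

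**Figure D2:**
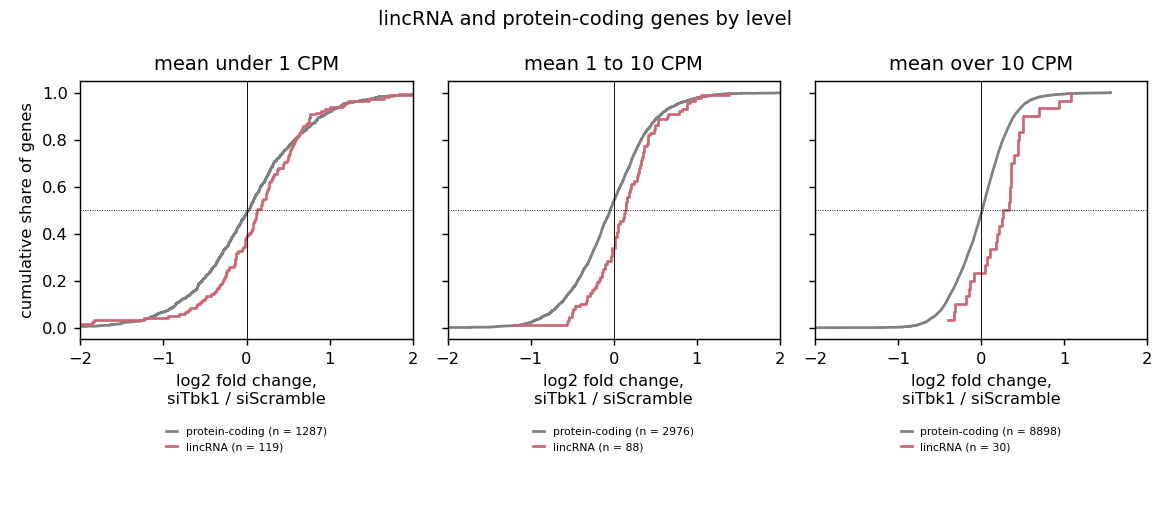
Cumulative share of genes (y axis) against the log2 fold change of siTbk1 over siScramble (x axis, cut at -2 and 2) for lincRNA (red) and protein-coding genes (grey), in 3 ranges of mean CPM. In each range the lincRNA curve crosses the dotted middle line to the right of the protein-coding curve, at 0.12, 0.14 and 0.30. The axis leaves out 3 lincRNA and 20 protein-coding genes.

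Other noncoding classes of the table are given for comparison. In the 46 processed transcripts tested the median log2 fold change was 0.16, and 2 were called higher and 2 lower. The 179 pseudogenes had a median of 0.077 with 6 higher and 10 lower, and the 271 processed pseudogenes a median of -0.018 with 2 higher and 10 lower. The 21 unprocessed pseudogenes had a median of 0.26, and 2 were called higher and 1 lower. The lincRNA median, 0.16, was within the range of these classes.

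The largest change among the better measured members was that of AABR07072236.1 (chromosome 11, 61994181 to 61995550, minus strand, rn6 as the table lists it). It was at 3.31 and 2.45 CPM in siScramble and at 7.40 and 7.84 CPM in siTbk1, a log2 fold change of 1.39 (SE 0.15, adjusted p = 2.3e-05). The groups did not overlap, which held for all 25 members called. It overlaps Gramd1c on the opposite strand, a gene for a protein that moves sterols between membranes, whose level rose as well (log2 fold change 0.61, adjusted p = 7.6e-05). The libraries were stranded, but whether the counting used strand is not given in the sources used here. Reads of the pair may therefore not have been told apart.

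LOC102551095 (chromosome 2, 183807073 to 183811119) rose from 8.39 and 8.84 CPM to 17.2 and 19.2 CPM, a log2 fold change of 1.08 (SE 0.094, adjusted p = 5.8e-06). AABR07011996.1 (chromosome 2, 180878153 to 180883460) rose from 14.6 and 12.7 CPM to 25.4 and 27.1 CPM, a log2 fold change of 0.94 (SE 0.086, adjusted p = 8.3e-06). Both were among the 3 called members with a mean of 10 CPM or more, and the lowest siTbk1 sample of each was above its highest siScramble sample. AABR07008030.1, also on chromosome 2, was at 4.60 and 3.79 CPM in siScramble and 8.14 and 8.43 CPM in siTbk1 (log2 fold change 0.97, adjusted p = 8.0e-05).

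AABR07058158.1 spans chromosome 7 from 102648881 to 102870007 on the plus strand, 57.6 kb downstream of Myc, the transcription factor gene that drives growth. It was at 10.5 and 10.1 CPM in siScramble and at 16.3 and 17.0 CPM in siTbk1 (log2 fold change 0.69, SE 0.086, adjusted p = 6.1e-05). Myc itself had a log2 fold change of -0.37 (adjusted p = 0.00029), under the fold limit and with reads divided between genes. In the RefSeq gene order of GRCr8 the next lncRNA beyond Myc is Pvt1, but whether AABR07058158.1 is that gene was not determined. With the trend along genomic span removed, the log2 fold change of AABR07058158.1 was 0.57, under the fold limit.

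A pair of called members lay close together. AABR07021544.1 and AABR07021547.1, 157 kb apart on opposite strands of chromosome 13, had log2 fold changes of 0.88 (adjusted p = 0.0091) and 1.05 (adjusted p = 0.0043). The first was at 0.833 and 0.808 CPM in siScramble and 1.49 and 1.54 CPM in siTbk1, and the second at 0.687 and 0.985 CPM against 1.70 and 1.72 CPM. Neither overlapped between groups, like every other member called. With DESeq2 the adjusted p of AABR07021544.1 was 0.076.

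The other members called higher at 1 CPM or more had log2 fold changes from 0.64 to 0.92. LOC102555534 was at 1.71 and 1.92 CPM in siScramble and 3.13 and 3.26 CPM in siTbk1 (log2 fold change 0.82, adjusted p = 0.0018). AABR07010468.1, 1.01 kb from the protocadherin gene Pcdh10 and transcribed away from it, was at 0.937 and 0.833 CPM against 1.79 and 1.56 CPM (log2 fold change 0.92, adjusted p = 0.0065). The latter missed the threshold with DESeq2 (adjusted p = 0.052). AABR07060560.3 (log2 fold change 0.88), AABR07027870.2 (0.65) and AABR07043389.1 (0.64) lost their calls when single libraries were left out. AABR07060560.3 had 0.81 without siScramble replicate 3 (adjusted p = 0.052) and 0.58 without siTbk1 replicate 3 (adjusted p = 0.20). AABR07027870.2 had 0.53 without siScramble replicate 2 and 0.45 without siTbk1 replicate 3, and AABR07043389.1 had 0.51 without siScramble replicate 3 and 0.57 without siTbk1 replicate 3. The last 2 of these genes had reads divided between genes.

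Another 7 members were called higher below 1 CPM, on 2 to 42 counts per library. They were AABR07060341.2 (log2 fold change 2.09), AABR07058838.1 (1.71), AC127076.2 (1.65), AABR07012131.1 (1.47), AC095078.1 (1.22), AABR07034464.1 (1.00) and AC127084.5 (0.95). AABR07034464.1 overlaps Ncbp2, which encodes a cap-binding protein, on the same strand, and 3 of the 7 had divided reads. The first 4 of those listed passed the filter through siTbk1 only. Each lost its call when at least 1 library was left out. Their highest adjusted p over the alternatives lay between 0.095 (AC095078.1) and 0.29 (AC127084.5).

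**Figure D3:**
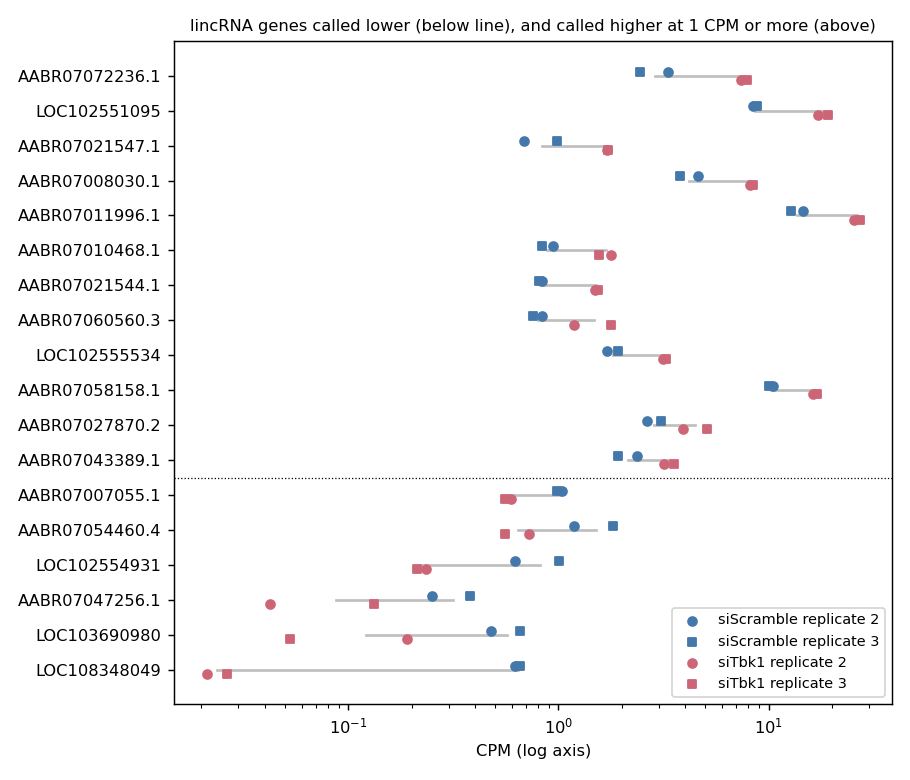
CPM (x axis, log scale) in each sample for the 6 members called lower, below the dotted line, and the 12 called higher whose siTbk1 mean reached 1 CPM, above it. Blue marks siScramble and red siTbk1, circles replicate 2 and squares replicate 3, and grey bars join the group means. The samples of the groups do not overlap in any of these 18 genes. The genes were chosen by their calls, so this is no separate support. Over all genes tested, 38.7% did not overlap with siTbk1 higher and 37.9% with siTbk1 lower.

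The members that fell were scarce in every sample, the most abundant at a mean of 1.07 CPM. Of the 6, LOC108348049, LOC102554931, LOC103690980 and AABR07047256.1 passed the filter through siScramble only. LOC108348049 (chromosome 2, 126267658 to 126284239, plus strand) had 30 and 26 counts in siScramble and 1 count in each siTbk1 sample. The summed 56 against 2 counts gave a ratio of 27.1 after scaling, with a 95% exact interval of 7.16 to 229 that covers counting error only (log2 fold change -4.60, adjusted p = 9.2e-05). Its reads were divided between genes. LOC102554931 had 30 and 40 counts against 11 and 8 (log2 fold change -1.83, adjusted p = 0.0026), and LOC103690980 had 23 and 26 against 9 and 2 (log2 fold change -2.10, adjusted p = 0.0052). Reads of both were also divided, and with all members of that kind left out 3 lower calls remained.

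AABR07054460.4 had 57 and 72 counts in siScramble and 34 and 21 in siTbk1 (log2 fold change -1.20, adjusted p = 0.0053), and -0.88 without siScramble replicate 3 (adjusted p = 0.059). AABR07047256.1 had 12 and 15 counts against 2 and 5 (log2 fold change -1.86, adjusted p = 0.028). Its adjusted p was 0.18 without siScramble replicate 3 and 0.21 without siTbk1 replicate 2. AABR07007055.1 had 50 and 39 counts against 28 and 21 (log2 fold change -0.81, adjusted p = 0.031), and leaving out any of the 4 libraries raised its adjusted p to between 0.082 and 0.14.

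The 10 members with the most counts differed by less than 1.5-fold in the comparison of all 4 samples. Tug1 (chromosome 14, 83878295 to 83887585, minus strand) was at 202 and 178 CPM in siScramble and 260 and 279 CPM in siTbk1. The means were 190 ± 17.3 and 270 ± 13.4 CPM (SD, n = 2 each), a 1.42-fold difference (log2 fold change 0.50, SE 0.066, adjusted p = 8.2e-05) that was larger than the spread between replicates and under the fold limit. Tug1 passed the limit without siScramble replicate 2 (log2 fold change 0.60) and with the span trend removed (0.59). It stayed under the limit without siScramble replicate 3 (0.41), siTbk1 replicate 2 (0.54) or siTbk1 replicate 3 (0.45), and with library size alone (0.46). Morc2, 1.5 kb away and transcribed in the opposite direction, had a log2 fold change of 0.14 (adjusted p = 0.045). Reads of both genes were divided between genes. Tug1 was also the only one of 44 well-known lncRNAs searched for by symbol that was listed.

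None of these 10 passed the fold limit, while 6 were higher and 3 lower at an adjusted p under 0.05, a limit that 30.0% of protein-coding genes over 10 CPM passed as higher and 29.6% as lower. AC108574.1 was at 51.7 and 46.9 CPM in siScramble and 66.6 and 68.2 CPM in siTbk1 (log2 fold change 0.45, adjusted p = 0.00015). In the other direction, LOC103694491 was at 29.7 and 30.4 CPM against 22.9 and 22.7 CPM (log2 fold change -0.40, adjusted p = 0.00050), and LOC102549726 at 43.6 and 43.3 CPM against 33.6 and 35.9 CPM (log2 fold change -0.32, adjusted p = 0.0013). The gene listed as Rfwd3 was at 32.8 and 33.1 CPM against 33.4 and 34.9 CPM, a log2 fold change of 0.05 (SE 0.065, adjusted p = 0.55). RefSeq lists Rfwd3 and LOC103694491 as protein-coding. Kantr, named after its values were seen, was at 0.250 and 0.530 CPM against 0.446 and 0.291 CPM, and its groups overlapped (adjusted p = 0.98).

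For each member tested, the nearest protein-coding gene in the table was found by position. The median distance was 23.7 kb, 23 members overlapped their neighbour and 16 neighbours were not tested. In the 221 pairs with both genes tested, 123 (55.7%) had log2 fold changes of the same sign. For protein-coding genes and their nearest protein-coding gene the share was 61.6% of 12409 pairs. Across the 221 pairs Pearson's r was 0.081 and Spearman's rho 0.14, as a description over genes that share the same 4 libraries.

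The pairs were also set out by distance. Of 23 overlapping pairs 16 (69.6%) had the same sign, of 47 pairs up to 5 kb apart 26 (55.3%), of 62 pairs from 5 to 50 kb 35 (56.5%) and of 89 pairs over 50 kb apart 46 (51.7%). Pearson's r was 0.35 over the 70 pairs that overlapped or lay within 5 kb, and 0.020 over those beyond 50 kb. For protein-coding pairs the values were 0.25 and 0.086. By Spearman's rho and by sign the order was the other way, with a rho of 0.30 and 60.0% of the same sign in the 70 close lincRNA pairs, and 0.36 and 63.2% in close protein-coding pairs. Among the 70 close pairs r was 0.31 on the same strand (39 pairs) and 0.40 on opposite strands (31 pairs). The difference between these was not tested. In the 32 close pairs without divided reads r was 0.37 and rho 0.31, while 17 (53.1%) had the same sign.

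**Figure D4:**
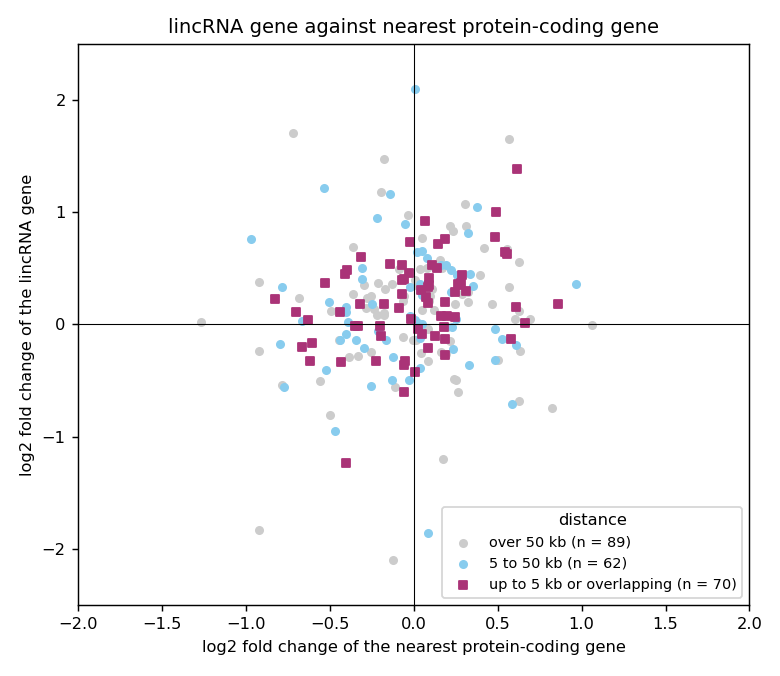
Log2 fold change of each lincRNA gene (y axis) against that of its nearest protein-coding gene (x axis), siTbk1 over siScramble, for 221 pairs coloured by distance. The 70 close pairs (purple squares, r = 0.35) tilt upward, and the 89 pairs beyond 50 kb (grey, r = 0.020) do not. The close pairs include 23 that overlap, and the cause of the tilt was not tested. LOC108348049, at -4.60, lies outside the axes.

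Of the 25 called members 2 had a called neighbour, where 11.2% of all protein-coding genes tested were called in either direction. Of the 19 members that rose, 1 had a neighbour called higher (Gramd1c), none had one called lower, 16 had one that was not called and 2 had one that was not tested. Of the 6 that fell, 1 had a neighbour called lower, Sik1, the kinase gene that cAMP signalling induces, 71.5 kb from LOC102554931 on the opposite strand. Sik1 was at a mean of 21.6 CPM in siScramble and 11.4 CPM in siTbk1 (log2 fold change -0.92, adjusted p = 6.0e-06). At an adjusted p under 0.05 without the fold limit, 10 neighbours of members that rose passed. Of these, 7 changed in the same direction as the lincRNA and 3 in the other. Among all protein-coding genes tested, 24.8% passed that limit as higher and 25.6% as lower. Beside Gramd1c, the 7 were Lactb2 (log2 fold change 0.57), Ncbp2 (0.49), Cacybp (0.37), Zfp706 (0.32), Tnr (0.31) and Arfip1 (0.30), and they lay from an overlap (Ncbp2) to 225 kb away (Arfip1). The 3 were LOC103690006 (-0.54), Myc (-0.37) and Etv3 (-0.18). For the 6 members that fell, 4 neighbours passed, 2 in each direction, and over all 221 neighbours tested 115 passed, 62 in the same direction as the lincRNA and 53 in the other. Of these 221 neighbours, 12 were called higher and 17 lower, where 4.85% and 6.31% of all protein-coding genes tested were.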

How the data were processed

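RNA sequencing of INS-1 832/13 cells (siScramble and siTbk1, 2 samples each) was analysed from 1 table. The authors deposited estimated counts per gene, not scaled between samples. The submitters' processing notes name STAR 2.6.1d, Partek and rn6. The annotation and strand setting of the counting are not given in the sources used here. Libraries were stranded and mRNA-selected, so transcripts without poly(A) are under-represented.

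Counts were rounded, filtered with filterByExpr of edgeR 4.0.16 (minimum count 10), scaled by TMM and compared with edgeR's quasi-likelihood test with treatment as the only factor. P-values were adjusted over all 13953 genes (Benjamini-Hochberg), and a call required an adjusted p under 0.05 with a change of 1.5-fold or more. CPM used the scaled library sizes. Reads of a gene are called divided if any sample's deposited count is over 0.01 away from an integer. That reads were divided between genes is inferred from this alone. Nearest genes were taken edge to edge from the listed positions. Members were matched to RefSeq by symbol, synonym or gene ID (16 of 366).

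The members and lists were chosen with earlier results of these data known. Genes named are the members called (if over 15 in a direction, those with at least 1 CPM in the higher group), the 10 with the highest mean CPM, known lncRNAs, their neighbours and Tbk1. The 7 scarcer calls and Kantr are outside this rule. Scripts were tested on simulated data. Alternatives were a replicate block, other scalings and filters, DESeq2 1.42.0, glmTreat, no fold limit, removal of the span trend, members with divided reads left out, and each sample left out. R 4.3.3, Python 3.11.15 and matplotlib 3.10.9 were used. Having 2 samples per group limits every comparison.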

Additional observations from a re-analysis of the deposited data

How the results depend on the processing

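Against 19 higher and 6 lower calls, no fold limit gave 41 and 13, glmTreat against a fold change of 1.5 gave 3 (AABR07072236.1, LOC102551095 and AABR07011996.1) and 1 (LOC108348049), and DESeq2 gave 9 and 1. DESeq2 set no adjusted p for 87 members, among them 11 of the 25 calls, and of the other 14 it kept 10. Lower calls numbered 3 with a minimum of 10 counts in every sample, 3 with divided reads left out, 9 with library size alone and 9 without the filter. Leaving out each library gave 15 to 20 higher and 3 to 12 lower calls, a median of 0.11 to 0.20, a share difference of 0.0131 to 0.0212 percentage points and 51.2% to 57.2% of neighbours with the same sign. The fits that leave out 1 library assume that the lone sample varies like the other group. Removing the span trend moved the median from 0.16 to 0.22 on the log2 scale, alone and with the replicate block. Without Tug1 the share difference was 0.010 percentage points. The cause of these differences was not tested.

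The replicate numbers were not taken to pair the samples. Over all genes the correlation of the deviations was 0.0041 by Pearson and -0.195 by Spearman. With the replicate block 21 members were called higher and 6 lower, including all 25, and 54.3% of neighbours had the same sign. Across 13 alternatives, without those that change the fold limit, 6 higher and 3 lower calls held wherever they had a value. The 3 lower passed the filter through siScramble only and had no value with DESeq2 or the minimum of 10 counts, so this says little of their stability. No direction reversed among 412 values of the named members, of which 365 kept their side of the threshold. These values are refits of the same 4 libraries or some of them. The settings without a fold limit and with glmTreat reuse the main log2 fold change, so they could not reverse. Many of these members were named because they were called, so the lack of reversals says little of their stability. Leaving out members that RefSeq lists as protein-coding, chosen after seeing the data, gave 19 and 6. Few counts limit members under 1 CPM.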

Other observations

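Of the 366 members, 16 matched a RefSeq entry, and RefSeq lists 12 of these as lncRNA and 4 as protein-coding: Rfwd3, LOC103694491 (Smim10l2a), LOC688442 (Marf1l1) and RGD1565989 (Larp1bl). None of the 4 was called, and 2 of them are among the 10 members with the most counts.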
